A study of Mus musculus with 6 samples.

Results

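The 10 genes described here are 4 fibroblast growth factors (FGFs; Fgf1, Fgf2, Fgf7 and Fgf18), the 4 FGF receptor genes (Fgfr1 to Fgfr4) and 2 feedback inhibitors (Spry2 and Dusp6). They were taken by gene symbol from a table of 28812 mouse genes, and all 10 were found. Poly(A) RNA was sequenced from wild-type (wt) mouse chondrocytes, the cells of cartilage, which the labels call osteoarthritic (OA). All 6 libraries come from cells given IL-1β (interleukin-1 beta), a cytokine that drives inflammation in joints. In 3 of them the cells also received vehicle, and in the other 3 mitochondria, which by the title of the series were those of osteocytes. The age of the animals, the dose and the time are not given in the sources used here, and no library of cells without IL-1β was analysed. Whether replicates were separate animals or cultures is not stated in the labels, so p-values measure only the spread between these libraries, which may be technical.

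FGFs are signalling proteins that bind receptor tyrosine kinases together with heparan sulfate chains on the cell surface. The activated receptor recruits adaptors that switch on RAS and, through a kinase cascade, ERK, which enters the nucleus and induces target genes. Among those targets are inhibitors that limit the signal, such as the Sprouty proteins, which act upstream on the cascade, and Dusp6, a phosphatase that removes the activating phosphates from ERK. In cartilage, Fgf2 is stored in the matrix around chondrocytes and released on injury, Fgf18 promotes matrix formation, and Fgfr3 restrains growth of the growth plate.

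Libraries held 63547854 to 66293786 deposited counts, each fragment being worth about 4 counts, and normalised levels are given as CPM, deposited counts scaled to a common library size by the TMM method. On the first principal component, vehicle replicate 1 (-30.4) lay nearer to the mitochondria libraries (27.4 to 81.4) than vehicle replicates 2 and 3 (-56.7 and -56.4). Mitochondria replicate 1 (81.4) stood apart from mitochondria replicates 2 and 3 (27.4 and 34.7). Libraries also differed in how levels related to the GC content of transcripts. Per 10 percentage points of GC, log2 levels deviated from the mean over libraries by -0.24 to -0.17 in the vehicle libraries and by 0.03, 0.10 and 0.51 in mitochondria replicates 2, 3 and 1. This slope moved with the groups, so each fold change below was also fitted with GC offsets, which remove the trend from each library. The offsets also remove any group difference that follows GC content, and a technical trend and a response cannot be told apart here.

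Transcript levels of the 10 genes spanned about 3 orders of magnitude on the FPKM scale, which divides by transcript length and so allows genes to be compared. Fgf7, known as keratinocyte growth factor and secreted by mesenchymal cells, was the highest, at 60.5 ± 5.26 FPKM with vehicle (SD, n = 3). Fgfr1, a widely expressed receptor, followed at 28.2 ± 1.37 FPKM, then Spry2 at 15.5 ± 0.653 and Dusp6 at 10.7 ± 1.56 FPKM. Fgfr2 (8.10 ± 1.78 FPKM) and Fgf2 (7.11 ± 1.58 FPKM) came next, and their vehicle values overlapped. Fgf18 (1.62 ± 0.429 FPKM) and Fgfr3 (1.59 ± 0.253 FPKM) overlapped as well. Fgf1 (0.151 ± 0.0269 FPKM) and Fgfr4 (0 to 0.0680 FPKM) were the lowest, and no other neighbours in this order overlapped. With mitochondria, the order was the same except that Dusp6 (15.3 ± 1.09 FPKM) stood above Spry2 (13.2 ± 1.33 FPKM), with values that overlapped. Overlaps in that group were also found between Fgf7 and Fgfr1 and between each pair of neighbours from Fgfr2 through Fgf2 and Fgf18 to Fgfr3.

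**Figure D1:**
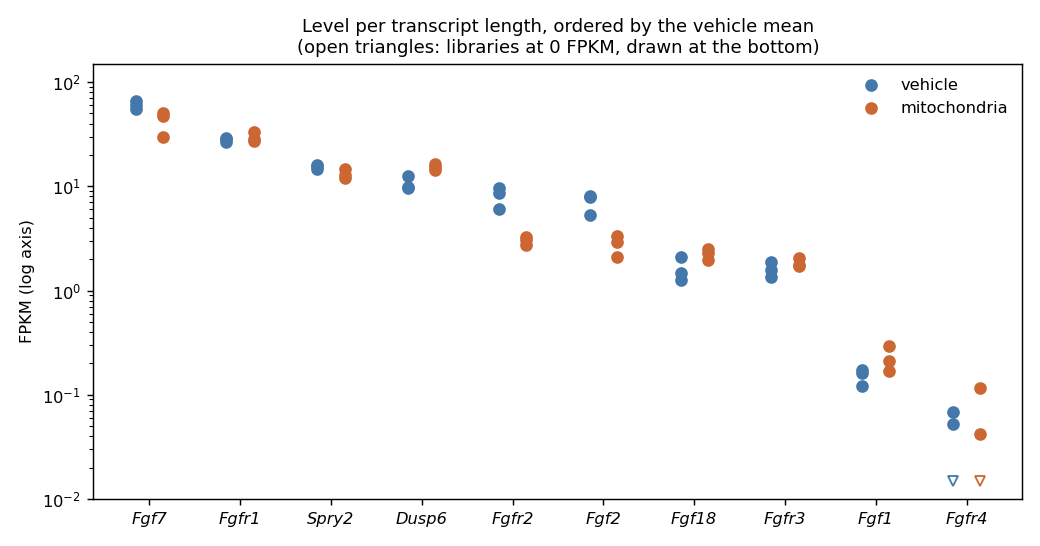
FPKM of the 10 genes on a log axis, 1 point per library (blue, 3 vehicle libraries; orange, 3 mitochondria libraries), ordered by the vehicle mean. Fgf7 is highest and Fgfr4 lowest, the latter at 0 FPKM in 1 library of each group, drawn as an open triangle at the bottom.

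With mitochondria, Fgf2 and Fgfr2 fell and Dusp6 rose, while the other 7 genes did not pass the test (edgeR quasi-likelihood, Benjamini-Hochberg adjustment over 17290 genes tested, threshold 0.05). All 10 genes passed the filter on low counts. The shares called among all genes tested were 6.36% higher and 8.46% lower, and 1 higher and 2 lower among 10 genes is to be read against those. The median log2 fold change of the 10 genes was 0.21, against 0.00 over all genes tested. Vehicle and mitochondria values were fully separated in 5 of the 10 genes (Fgf1, Fgf2, Fgf7, Fgfr2 and Dusp6), against 40.7% of all genes tested. DESeq2 called 1 of the 10 higher and 3 lower, the third being Fgf7, where it called 10.1% of all genes higher and 14.7% lower. In bulk RNA, fewer cells of a type and less RNA per cell cannot be told apart.

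**Figure D2:**
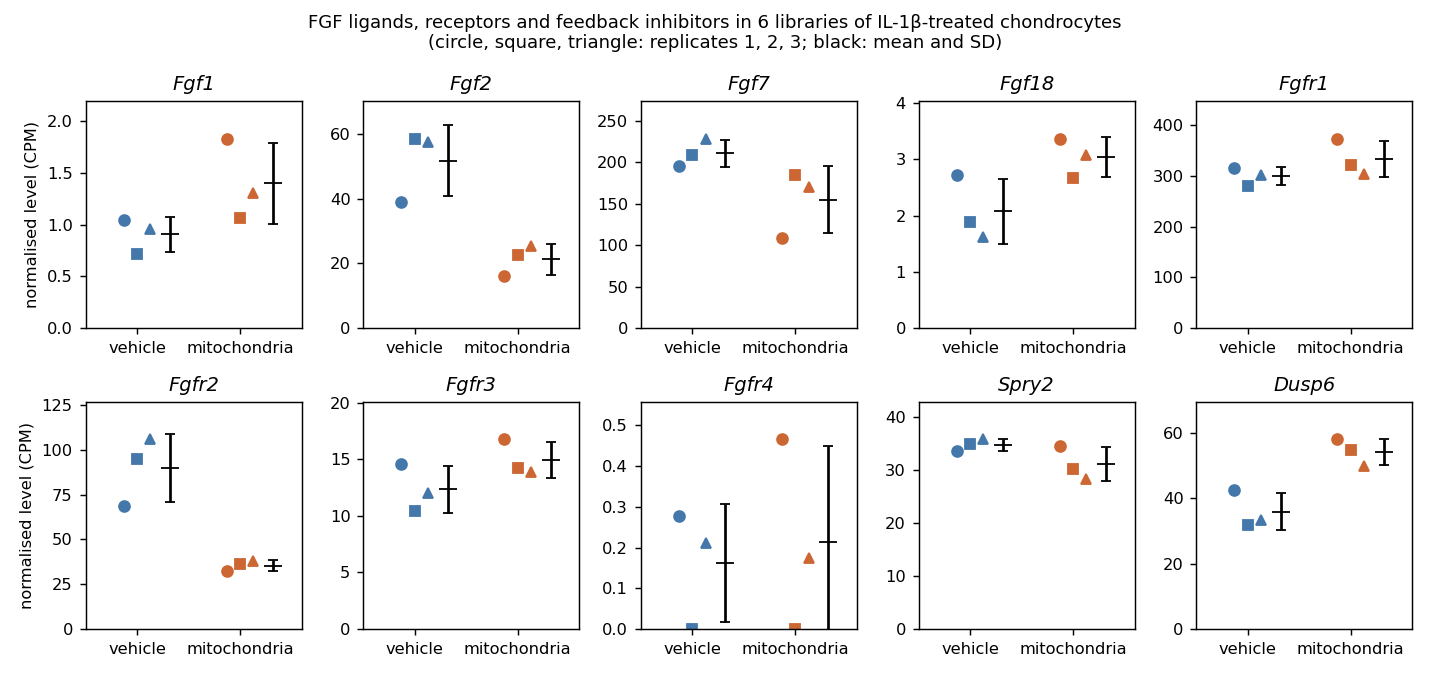
Normalised level (CPM) of each of the 10 genes by group, with 1 symbol per library (circle, square and triangle for replicates 1, 2 and 3) and the mean and SD of 3 libraries in black. Each panel has its own linear axis starting at 0, where the error bar of Fgfr4 ends. Fgf2 and Fgfr2 lie lower and Dusp6 higher in all 3 mitochondria libraries than in any vehicle library, and vehicle replicate 1 is the vehicle library nearest to the other group in these 3 panels.

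Fgf2, or basic FGF, is the matrix-bound ligand that engages several FGF receptors and lies on chromosome 3 at 37348346 to 37410108 (plus strand, GRCm38). Its level was 39.1, 58.6 and 57.6 CPM in vehicle replicates 1 to 3 and 16.0, 22.5 and 25.3 CPM in mitochondria replicates 1 to 3. Every mitochondria library was below every vehicle library, and the lowest vehicle library was replicate 1. Fgf2 fell 2.43-fold (log2 fold change -1.28 ± 0.21, SE; adjusted p = 0.0082, edgeR). With GC offsets the log2 fold change was -0.93 (adjusted p = 0.0044, edgeR), and its longest transcript has a GC content of 42.2%. Fgf2 shares 640 exonic bases with Nudt6, a gene on the opposite strand, and the strand setting of the counting is not given in the sources used here. Nudt6 levels were 1.73 ± 0.306 CPM in vehicle and 1.74 ± 0.615 CPM in mitochondria libraries (SD, n = 3), far below Fgf2.

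Fgf7 acts on the IIIb splice form of Fgfr2, a form typical of epithelial cells, and lies on chromosome 2 at 126034658 to 126091185 (plus strand). It was measured at 195, 208 and 229 CPM with vehicle and at 109, 185 and 171 CPM with mitochondria. The groups did not overlap, but mitochondria replicate 1 was far below the other 2 libraries of its group. The log2 fold change was -0.44 ± 0.18 and did not pass (adjusted p = 0.13, edgeR). It was 0.22 with GC offsets, the opposite direction (adjusted p = 0.062, edgeR), and -0.46 with DESeq2, where it passed (adjusted p = 0.038). At 38.0%, Fgf7 has the lowest transcript GC content of the 10 genes, and no direction is given for it.

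Fgf18, the ligand used as an anabolic factor for cartilage, was measured at 2.72, 1.89 and 1.62 CPM with vehicle and at 3.37, 2.66 and 3.08 CPM with mitochondria. Vehicle replicate 1 lay just above mitochondria replicate 2, so the groups overlapped. The log2 fold change was 0.55 ± 0.27 (adjusted p = 0.20, edgeR). Fgf1, or acidic FGF, which can bind every FGF receptor, was close to the limit of what was measured, at 1.04, 0.714 and 0.960 CPM with vehicle and 1.83, 1.06 and 1.31 CPM with mitochondria. The groups were separated by a narrow gap, and the log2 fold change of 0.63 ± 0.37 did not pass (adjusted p = 0.29, edgeR).

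Summed over the 4 ligands, the level was 69.3 ± 6.19 FPKM with vehicle and 47.6 ± 11.3 FPKM with mitochondria (SD, n = 3; exact two-sided permutation p = 0.10, 0.13 adjusted over 13 sums, shares and ratios). The smallest p that 3 against 3 libraries can give is 0.10. Fgf7 made up most of that sum, 87.2% ± 0.969 with vehicle and 88.6% ± 2.50 with mitochondria (exact permutation p = 0.50, adjusted p = 0.54), so the sum follows Fgf7, whose direction depended on the GC offsets. Fgf2 made up 10.2% ± 1.61 and 5.87% ± 0.524 (exact permutation p = 0.10, adjusted p = 0.13), and the shares of the groups did not overlap.

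Fgfr2, a receptor with epithelial (IIIb) and mesenchymal (IIIc) splice forms, showed the largest change of the 10 genes in log2 units. The deposited model places it on chromosome 7 at 130162451 to 133123350 (minus strand). Its level was 68.9, 95.0 and 106 CPM in vehicle replicates 1 to 3 and 32.1, 36.2 and 37.7 CPM in mitochondria replicates 1 to 3. The mitochondria libraries lay close together, well below the lowest vehicle library, which was again replicate 1. Fgfr2 fell 2.54-fold (log2 fold change -1.35 ± 0.16, SE; adjusted p = 0.0042, edgeR), and the value was -1.38 with GC offsets (adjusted p = 0.0012, edgeR). The file gives 1 value per gene, so the splice forms were not separated. The gene model shares 314 exonic bases with Ctbp2, a neighbour on the same strand, whose level was 45.1 ± 3.36 CPM in vehicle and 48.1 ± 2.96 CPM in mitochondria libraries (SD, n = 3), and which did not pass (log2 fold change 0.09, adjusted p = 0.59, edgeR).

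Fgfr1 was the main receptor transcript, at 315, 280 and 302 CPM with vehicle and 373, 322 and 304 CPM with mitochondria. The groups overlapped, and the log2 fold change was 0.15 ± 0.10 (adjusted p = 0.33, edgeR) and 0.01 with GC offsets. Fgfr3, the receptor through which Fgf18 acts on growth plate chondrocytes, was measured at 14.6, 10.4 and 12.0 CPM with vehicle and at 16.8, 14.2 and 13.8 CPM with mitochondria. These groups overlapped too, with a log2 fold change of 0.28 ± 0.16 (adjusted p = 0.28, edgeR). Fgfr4 was barely detected: its deposited counts were 18, 0 and 14 with vehicle and 30, 0 and 11 with mitochondria, or a few fragments per library. A count of 0 allows up to 3 fragments, or 12 deposited counts, for counting error only, and a difference in Fgfr4 was not detectable at this depth (log2 fold change 0.39 ± 1.46, adjusted p = 0.89, edgeR).

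Within the receptor family, Fgfr2 took 16.4%, 23.6% and 24.0% of the summed receptor FPKM in the vehicle libraries and 7.15%, 9.18% and 10.0% in the mitochondria libraries. Fgfr1 took 74.4% ± 3.57 with vehicle and 85.8% ± 1.31 with mitochondria (SD, n = 3). Both shares were separated between groups in all 6 libraries (exact two-sided permutation p = 0.10 for each, adjusted p = 0.13). Fgfr1 transcripts outnumbered Fgfr2 transcripts per length by 4.79, 3.09 and 2.99 to 1 with vehicle and by 12.2, 9.33 and 8.44 to 1 with mitochondria. The summed receptor level was 37.9 ± 1.63 FPKM with vehicle and 34.8 ± 3.16 FPKM with mitochondria (exact permutation p = 0.30, adjusted p = 0.35).

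**Figure D3:**
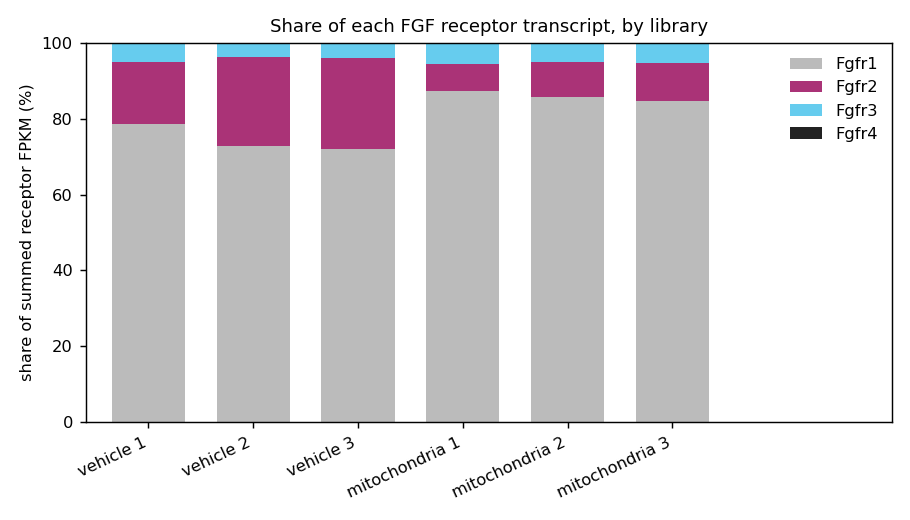
Share of each receptor gene in the summed FPKM of the 4 FGF receptors, 1 bar per library. Fgfr2 takes 16.4% to 24.0% of the vehicle bars and 7.15% to 10.0% of the mitochondria bars, Fgfr1 takes most of every bar, and Fgfr4 is too low to be seen.

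Dusp6, the ERK phosphatase, is on chromosome 10 at 99263231 to 99267489 (plus strand). It was measured at 42.5, 31.9 and 33.4 CPM with vehicle and at 58.0, 54.7 and 49.9 CPM with mitochondria. All mitochondria libraries were above all vehicle libraries, of which replicate 1 was the highest. Dusp6 rose 1.51-fold (log2 fold change 0.59 ± 0.13, SE; adjusted p = 0.022, edgeR), and by 0.61 on the log2 scale with GC offsets (adjusted p = 0.011, edgeR). The call was lost without vehicle replicate 2 (adjusted p = 0.10), vehicle replicate 3 (0.11) or mitochondria replicate 3 (0.051), with log2 fold changes of 0.51 to 0.73 over all 6 fits that left out 1 library. The calls of Fgf2 and Fgfr2 held in each of those 6 fits.

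Spry2, an inhibitor of receptor signalling to ERK on chromosome 14 at 105891947 to 105896819 (minus strand), did not pass. Its level was 33.5, 34.8 and 35.7 CPM with vehicle and 34.6, 30.2 and 28.3 CPM with mitochondria. Mitochondria replicate 1 lay within the vehicle range, and the log2 fold change was -0.16 ± 0.11 (adjusted p = 0.37, edgeR) and -0.02 with GC offsets. The ratio of Dusp6 to Spry2 FPKM within each library averaged 0.692 ± 0.132 in the vehicle group and 1.17 ± 0.0441 in the mitochondria group (SD, n = 3; exact two-sided permutation p = 0.10, adjusted p = 0.13). Its groups did not overlap.

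Dusp6 and Spry2 are both known as ERK-induced inhibitors, and their promoters are shown because Dusp6 passed the test and Spry2 did not. Whether the 2 genes differ in response was not settled. The ratio above was separated between the groups and gave the smallest permutation p that 3 against 3 libraries allow, so that test could not pass. The sequences are the 250 bases before the RefSeq transcript start (GRCm38.p6), at chr10:99262981-99263230 on the plus strand for Dusp6 and chr14:105896820-105897069 on the minus strand for Spry2. Capitals mark motif matches.
Dusp6: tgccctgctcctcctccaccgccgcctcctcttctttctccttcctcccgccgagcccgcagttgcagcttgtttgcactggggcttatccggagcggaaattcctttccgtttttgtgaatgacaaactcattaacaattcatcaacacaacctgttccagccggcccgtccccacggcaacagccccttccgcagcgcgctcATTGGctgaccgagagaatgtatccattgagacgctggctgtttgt
Spry2: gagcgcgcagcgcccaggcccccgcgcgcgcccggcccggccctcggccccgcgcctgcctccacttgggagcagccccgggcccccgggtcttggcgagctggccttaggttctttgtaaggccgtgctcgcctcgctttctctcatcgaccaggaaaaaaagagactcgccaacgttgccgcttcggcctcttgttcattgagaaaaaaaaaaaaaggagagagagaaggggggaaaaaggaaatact
Matches were sought on both strands to the AP-1 motif (TGANTCA, N being any base), the cAMP response element (TGACGTCA), an ETS core (CCGGAA), the GC box (GGGCGG), the TATA box (TATAAA), the CCAAT box (CCAAT), the NF-kB motif and the SRF CArG box. The Dusp6 window holds 1 match, a CCAAT box on the minus strand whose first printed base lies 46 bases before the start, and the Spry2 window holds none. A CCAAT box is found in 33.8% of the 32851 promoter windows of this length, a GC box in 32.7%, a TATA box in 12.4%, the ETS core in 12.0%, AP-1 in 6.75%, NF-kB in 3.90%, the cAMP response element in 1.55% and the CArG box in 1.47%. Searched motifs do not overlap at the match shown.

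**Figure D4:**
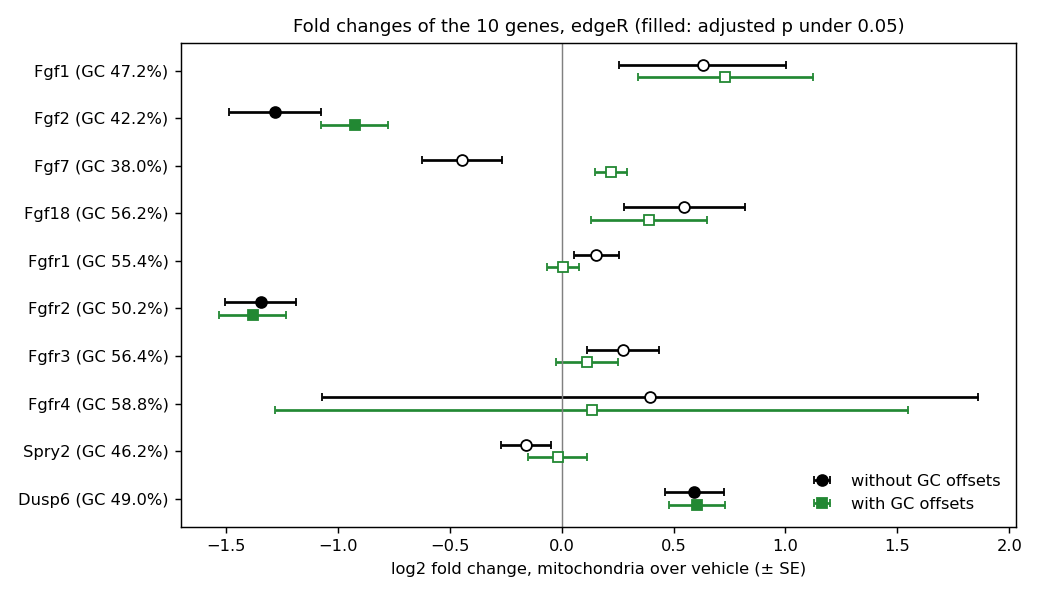
Log2 fold change (mitochondria over vehicle) of the 10 genes with its SE, fitted by edgeR without GC offsets (black circles) and with them (green squares), with the GC content of the longest transcript beside each name and filled symbols for adjusted p under 0.05. Fgf2, Fgfr2 and Dusp6 are filled in both fits, and Fgf7 moves from -0.44 to 0.22.

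Other genes of the pathway were taken from lists of 86 genes: further FGF ligands, co-receptors and binding proteins, adaptors and the RAS-ERK cascade, feedback inhibitors, and ERK-induced transcripts. Of these, 78 were in the table and 73 passed the filter. With mitochondria, 13 rose and 14 fell, against 6.36% and 8.46% of all genes tested, and the median log2 fold change was 0.06. With GC offsets 13 rose and 12 fell, where 9.82% and 9.43% of all genes were called higher and lower. The counts depended on which libraries were used, as did those over all genes tested. Leaving out vehicle replicate 2 left 1 higher and 2 lower, vehicle replicate 3 left 0 and 2, and mitochondria replicate 3 left 6 and 4 (edgeR). Over all genes tested, fits with 1 library left out called 130 to 1086 higher and 310 to 1694 lower. With all libraries those numbers were 1099 and 1463.

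Among 18 further ligands, 12 were in the table and 7 were tested, of which 3 fell and none rose. By unadjusted p under 0.05, 1 was higher (Fgf11) and 3 lower, against 2583 and 2864 of all 17290 genes tested (edgeR). DESeq2 called 0 higher and 3 lower, where it called 10.1% of all genes higher and 14.7% lower. Fgf9, a ligand of the mesenchymal receptor forms, fell from 4.75 ± 1.07 to 1.86 ± 0.365 CPM (SD, n = 3; log2 fold change -1.35, adjusted p = 0.015, edgeR). That call was lost with GC offsets (log2 fold change -0.82, adjusted p = 0.11, edgeR). Fgf10, which like Fgf7 acts on Fgfr2 of the IIIb form, fell from 13.3 ± 2.26 to 6.59 ± 1.61 CPM (log2 fold change -1.02, adjusted p = 0.020, edgeR) and by 0.62 on the log2 scale with GC offsets. Fgf13 is not a secreted ligand but an intracellular relative that modulates sodium channels, and it fell by 1.11 on the log2 scale (adjusted p = 0.017, edgeR). Fgf10 (1.98 FPKM over all libraries) and the intracellular Fgf11 (1.51 FPKM) were the highest of this list, both well below Fgf7. Fgf11 did not pass (log2 fold change 0.62, adjusted p = 0.13, edgeR), and Fgf15 had 0 counts in every library. The calls of Fgf9, Fgf10 and Fgf13 were lost when vehicle replicate 2 or 3 was left out, and those of Fgf9 and Fgf10 also when mitochondria replicate 3 was.

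Of 16 co-receptor and binding protein genes tested, 3 rose and 3 fell. The syndecan Sdc4, a heparan sulfate proteoglycan of the cell surface, was the highest at 359 FPKM, followed by the matrix proteoglycan perlecan, Hspg2, at 105 FPKM, and neither passed (log2 fold changes 0.13 and 0.10, adjusted p = 0.30 and 0.65, edgeR). Within the syndecans, Sdc2 fell from 425 ± 63.8 to 205 ± 29.7 CPM (SD, n = 3; log2 fold change -1.05, adjusted p = 0.0051, edgeR), while Sdc3 rose from 252 ± 13.3 to 341 ± 40.1 CPM (log2 fold change 0.43, adjusted p = 0.026). With GC offsets these log2 fold changes were -0.64 for Sdc2 and 0.24 for Sdc3 (adjusted p = 0.0042 and 0.042, edgeR). Glypicans, heparan sulfate proteoglycans held by a lipid anchor, also split: Gpc1 rose by 0.71 and Gpc3 fell by 0.34 on the log2 scale (adjusted p = 0.010 and 0.030, edgeR). Flrt2, a transmembrane protein of a family that binds FGF receptors, fell from 49.3 ± 5.26 to 19.5 ± 5.21 CPM (log2 fold change -1.34, adjusted p = 0.0066, edgeR). Fgfbp1, which releases FGFs from the matrix, rose from a low level of 0.829 ± 0.0666 to 2.27 ± 0.481 CPM (log2 fold change 1.45, adjusted p = 0.019, edgeR). The calls of Sdc2 and Flrt2 held in each of the 6 fits with 1 library left out. Those of Gpc1 and Sdc3 were lost without vehicle replicate 2 or 3, that of Fgfbp1 without vehicle replicate 2 or 3 or mitochondria replicate 2, and that of Gpc3 in all but the fit without mitochondria replicate 1.

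In the cascade from receptor to ERK, 20 genes were tested, of which 2 rose and 4 fell. The adaptor Grb2 rose by 0.41 and the ERK kinase Map2k1 by 0.35 on the log2 scale (adjusted p = 0.024 and 0.031, edgeR). Map2k1 (104 FPKM) and the ERK gene Mapk3 (52.0 FPKM) were the highest of the list, and Mapk3 did not pass (log2 fold change 0.13, adjusted p = 0.45, edgeR). Braf, a kinase above Map2k1, fell by 0.97 (adjusted p = 0.032, edgeR) and by 0.67 with GC offsets. The RAS activator Sos1 and the RAS gene Nras fell by 0.65 and 0.48 on the log2 scale (adjusted p = 0.036 and 0.042, edgeR). Neither call held with GC offsets, where the log2 fold changes were -0.20 and -0.15 (adjusted p = 0.18 and 0.28, edgeR). The calls of Grb2, Map2k1, Braf, Sos1 and Nras were lost when vehicle replicate 2, vehicle replicate 3 or mitochondria replicate 3 was left out. Those of Grb2 and Sos1 were also lost without vehicle replicate 1, and that of Map2k1 without mitochondria replicate 2.

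Among 15 further genes tested from the list of feedback inhibitors, which also holds other inhibitors such as Rasa1 and Dusp10, 4 rose and 2 fell. Spry1, a relative of Spry2, fell from 19.9, 24.5 and 28.3 CPM to 14.9, 12.3 and 15.2 CPM (log2 fold change -0.78, adjusted p = 0.017, edgeR). Spry4 had a log2 fold change of -0.43 that did not pass without GC offsets (adjusted p = 0.10, edgeR). With them it was -0.49 and passed (adjusted p = 0.047, edgeR). The phosphatase genes Dusp4 and Dusp9, which like Dusp6 encode enzymes that act on ERK, rose by 0.84 and 0.86 on the log2 scale (adjusted p = 0.027 and 0.039, edgeR), Dusp9 from 2.23 ± 0.414 CPM. The call of Dusp9 was lost with GC offsets (adjusted p = 0.064, edgeR). Dusp10, whose main substrates are the stress kinases JNK and p38, rose by 0.78 (adjusted p = 0.042, edgeR). Errfi1 (218 FPKM), the highest of the list and an inhibitor of the EGF receptor, rose by 0.55 (adjusted p = 0.023, edgeR). Rasa1, which switches RAS off, fell from 63.6 ± 4.02 to 24.1 ± 10.3 CPM (log2 fold change -1.40, adjusted p = 0.017, edgeR). Each of these 6 calls was lost without vehicle replicate 2 or 3, and those of Dusp4, Dusp9, Dusp10, Errfi1 and Rasa1 also without mitochondria replicate 3. Dusp9 and Dusp10 further lost theirs without mitochondria replicate 1, and Dusp4 and Dusp10 without mitochondria replicate 2.

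Of 15 ERK-induced transcripts, 4 rose and 2 fell, and their median log2 fold change was 0.39, or 0.19 with GC offsets. By unadjusted p under 0.05, 8 were higher and 2 lower, against 2583 and 2864 of all 17290 genes tested (edgeR). DESeq2 called 6 higher and 2 lower, where it called 10.1% of all genes higher and 14.7% lower. Ier3 (717 FPKM), an early response gene also induced by inflammatory cytokines, rose from 566 ± 168 to 1235 ± 123 CPM (SD, n = 3; log2 fold change 1.13, adjusted p = 0.0088, edgeR). The AP-1 subunit genes Junb (78.5 FPKM) and Fosl1 rose by 0.84 and 0.89, and Phlda1 rose by 0.53 on the log2 scale (adjusted p = 0.017, 0.024 and 0.017, edgeR), or by 0.34 for Phlda1 with GC offsets. The FGF-responsive factor Etv1 fell by 0.89 (adjusted p = 0.027, edgeR), with a log2 fold change of -0.36 that did not pass with GC offsets (adjusted p = 0.18), and cyclin D1, Ccnd1, fell by 0.39 (adjusted p = 0.039). The Etv1 relatives Etv4 and Etv5 (log2 fold changes 0.75 and 0.15, adjusted p = 0.063 and 0.36, edgeR) and Egr1 (-0.07, adjusted p = 0.82) did not pass. Fos did not pass either (log2 fold change 0.39, adjusted p = 0.062, edgeR). Both Etv4 and Fos passed with DESeq2 (log2 fold changes 0.74 and 0.38, adjusted p = 0.012 and 0.047). The call of Ier3 was lost without vehicle replicate 3, and the other 5 calls without vehicle replicate 2 or 3. Fosl1, Etv1 and Ccnd1 also lost theirs without mitochondria replicate 3, Etv1 without vehicle replicate 1 and Ccnd1 without mitochondria replicate 2.

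**Figure D5:**
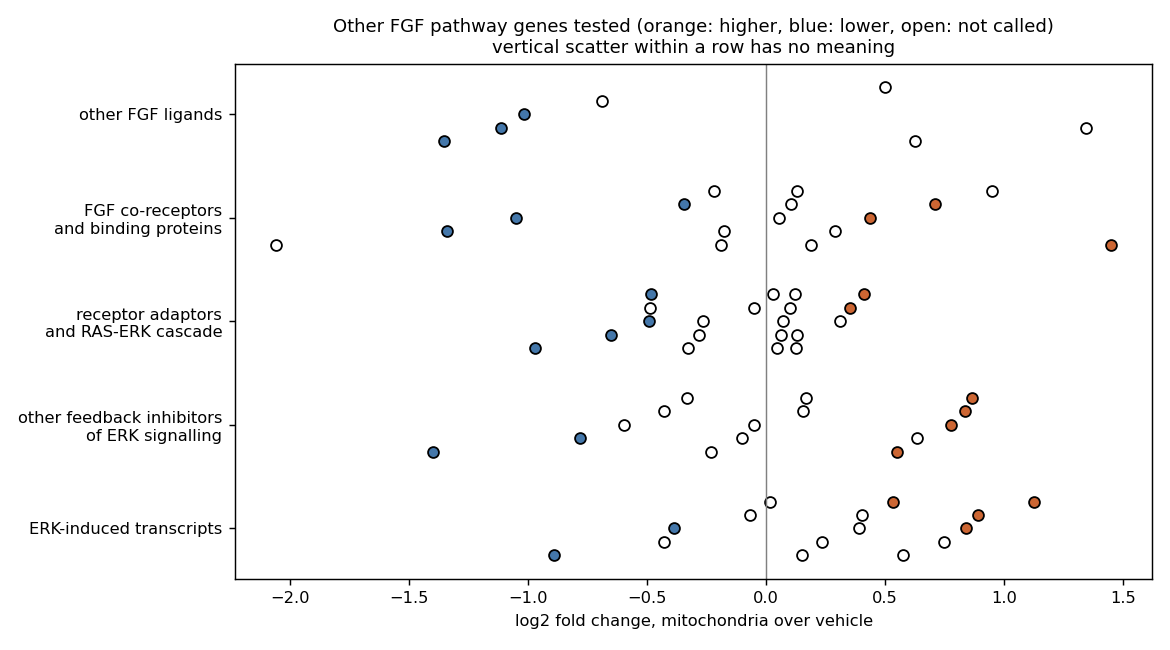
Log2 fold change (mitochondria over vehicle) of the 73 other pathway genes tested, 1 point per gene and 1 row per list, orange where the gene was called higher, blue where lower and open where not called (edgeR). Calls in both directions appear in 4 rows, and the row of further ligands has 3 lower calls and none higher.

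Cell type markers were read beside these results. Chondrocyte markers were present, with a summed level of 1854 to 2233 CPM in vehicle and 1508 to 1715 CPM in mitochondria libraries. Of 10, Acan and Sox9 rose (log2 fold changes 0.54 and 0.54, adjusted p = 0.041 and 0.028, edgeR). Hapln1 and Col11a1 fell (log2 fold changes -1.03 and -0.94, adjusted p = 0.0091 and 0.0087, edgeR). With GC offsets 1 rose (Sox9) and 3 fell (Hapln1, Col11a1 and Col2a1). Fibroblast markers were abundant, at 12385 to 14070 CPM in vehicle and 11812 to 12771 CPM in mitochondria libraries. Of 8, Col1a2, Thy1 and Pdgfra fell (log2 fold changes -0.46, -0.58 and -0.64, adjusted p = 0.015, 0.011 and 0.011, edgeR) and none rose. By unadjusted p under 0.05, 1 of the 8 was higher and 5 lower, against 2583 and 2864 of all 17290 genes tested (edgeR). DESeq2 called 1 higher and 5 lower, where it called 10.1% of all genes higher and 14.7% lower. With GC offsets 2 of the 8 rose and 5 fell. Those higher were Pdpn, with a log2 fold change of 0.52 without the offsets (adjusted p = 0.064, edgeR) and 0.54 with them (adjusted p = 0.036), and Dcn, with 0.31 (adjusted p = 0.22) and 1.03 (adjusted p = 0.00055). Epithelial markers, of interest for the IIIb form of Fgfr2, summed to 7.20 to 8.94 CPM with vehicle and 3.14 to 3.58 CPM with mitochondria. Of 4 tested, Krt8 and Krt14 fell and none rose (0 by unadjusted p, 0 by DESeq2). Krt18 and Cdh1 did not pass (log2 fold changes -0.99 and 1.09, adjusted p = 0.14 and 0.43, edgeR), with Cdh1 near the floor. Epcam had 16 deposited counts in mitochondria replicate 3 and Krt5 had 7 in mitochondria replicate 1, and both were at 0 in every other library. The chondrocyte and epithelial sums were both lower in every mitochondria library than in any vehicle library, as Fgf2 and Fgfr2 were, while the fibroblast sums of the groups overlapped. Col2a1, the largest part of the chondrocyte sum, did not pass without GC offsets (log2 fold change -0.16, adjusted p = 0.37, edgeR), and its groups overlapped. Much of the gap in that sum came from Col11a1, at 520, 619 and 703 CPM with vehicle and 256, 369 and 334 CPM with mitochondria. Groups were separated in 4 of the 10 chondrocyte markers, against 40.7% of all genes tested. Hapln1 and Col11a1 were lower and Acan and Sox9 higher, so the sum does not describe the list as a whole. The part of these lists in the results of Fgf2 and Fgfr2 was not tested. Osteocyte markers were near the floor, with sums of 0.372 to 0.990 CPM in vehicle and 0.528 to 1.45 CPM in mitochondria libraries. Sost and Dmp1 were at 0 in all mitochondria libraries and in all but 1 vehicle library each. Of 2 tested, neither passed. Fgf23, itself an FGF ligand, went from 0.247 ± 0.121 to 0.628 ± 0.401 CPM (log2 fold change 1.34, adjusted p = 0.25, edgeR). Bglap had a log2 fold change of 0.01. Macrophage markers summed to 43.5 to 59.4 CPM with vehicle and 36.4 to 49.0 CPM with mitochondria, and endothelial markers to 2.27 to 3.20 and 2.43 to 4.87 CPM.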

How the data were processed

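The authors deposited 1 table with 2 values per gene and library, per the file headers. The FPKM values were normalised by the authors for transcript length and depth. The other values are estimated counts (expected counts), which the authors deposited as whole numbers without normalisation. Build mm8 and the tools StringTie 1.3.0, HISAT2 2.0 and Bowtie 0.12.2 appear, without roles, in the submitters' processing notes. Coordinates nevertheless matched GENCODE M21 on GRCm38 (28732 of 28812 identifiers found, 90.2% of those with the same start and end, all 10 FGF genes among them). Genes with a count of 4 were 2.31 to 2.84 times as many as those at the neighbouring counts, so a fragment is taken as worth about 4 counts.

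Counts were fitted in R 4.3.3 with edgeR 4.0.16 (TMM, filterByExpr with a minimum count of 10, group as the only term, two-sided), and p-values were adjusted over all 17290 genes tested. The SE was derived from the fold change and the F statistic, so it is not separate evidence from the p. The fit was tested on simulated data. Alternatives were DESeq2 1.42.0, limma 3.58.1 on log2(FPKM + 1) and log2(FPKM + 0.1), other scalings and filters, counts divided by 4, GC offsets (loess of log2 level on GC content of the longest transcript, 17270 genes), a replicate block, and leaving out each library. Overlaps in exons were taken from GENCODE M21. Promoters are from RefSeq (GRCm38.p6), and windows were read for 8 of the 10 genes. Windows on chromosome 18, where Fgf1 lies, were left out for these genes, and Fgfr1 had no window.

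All 10 FGF genes are named whatever their change. From the pathway lists, genes past the threshold and the 2 of highest FPKM per list are named. Spry4, Etv4, Etv5, Egr1, Fos and Fgf23 were added after their values were seen. A gene of these lists is counted but not reported here by name. Members and lists were chosen with earlier results of these data known.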

Additional observations from a re-analysis of the deposited data

How the results depend on the processing

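Across 16 alternatives, Fgfr2 passed in all and Fgf2 in 15, and Dusp6 passed in 11. With no filter on low counts, Dusp6 did not pass (log2 fold change 0.59), and 0 of the 10 genes were higher. With limma on log2(FPKM + 1) and no filter, Fgf2 (-1.10, adjusted p = 0.055) and Dusp6 (0.49) did not pass, and 0 genes were higher and 1 lower. Both settings test more genes, and calls over all genes dropped as well, to 357 higher and 507 lower and to 161 and 301. Of the other pathway genes, 4 rose and 3 fell with no filter on counts, and 0 and 3 with limma and no filter. Fgf7 passed with DESeq2 (-0.46) and had the opposite direction with GC offsets (0.22); the cause was not tested.

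With 1 library left out, log2 fold changes ranged from -1.45 to -1.11 for Fgf2, -1.51 to -1.21 for Fgfr2, 0.51 to 0.73 for Dusp6, -0.59 to -0.25 for Fgf7, 0.39 to 0.79 for Fgf1, 0.40 to 0.79 for Fgf18, 0.06 to 0.22 for Fgfr1, 0.17 to 0.41 for Fgfr3, -0.24 to -0.10 for Spry2 and -0.88 to 1.01 for Fgfr4, which rests on a few fragments and was -0.18 without vehicle replicate 2 and -0.88 without mitochondria replicate 1. The number of the 10 genes called was 0 to 1 higher and 2 to 2 lower, and of other pathway genes 0 to 13 higher and 2 to 17 lower. Over all genes tested, the same fits called 130 to 1086 higher and 310 to 1694 lower, against 1099 and 1463 with all libraries. Of the 26 pathway genes named as called, 2 (Flrt2 and Sdc2) were called in all 6 such fits.

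No label says that replicate numbers pair the libraries, and same-number libraries correlated at 0.0371, 0.00907 and -0.0152 once group means were removed. With the replicate number as a block, log2 fold changes were -1.28 for Fgf2, -1.33 for Fgfr2, 0.60 for Dusp6, -0.48 for Fgf7, 0.61 for Fgf1, 0.57 for Fgf18, 0.15 for Fgfr1, 0.28 for Fgfr3, 0.24 for Fgfr4 and -0.16 for Spry2, and no call among the 10 genes changed. Of the other pathway genes, 13 rose and 10 fell with the block, against 13 and 14 without it. These counts were not set against those over all genes in the same fit.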
